A study of Mus musculus with 16 samples.

Results

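The comparison described here set EB5 control cells that had been differentiated toward mesoderm (control mesoderm) against EB5 control embryonic stem cells (ESC) in mesodermal medium (control ESCm). It rests on 4 of the 16 arrays of the series, chosen by their labels: 2 arrays of control mesoderm and 2 of control ESCm. EB5 is a mouse ESC line, and the EB5 control cells carried the pCAG expression vector with no insert, so none of the 4 arrays comes from cells with NERT, the hydroxytamoxifen-inducible intracellular domain of Notch1. Control mesoderm had been kept on collagen IV for 4 d in differentiation medium with fetal calf serum, and 1 array was made without and 1 with 4-hydroxytamoxifen (OHT, 1 µM for 4 h). Control ESCm had spent 4 h on gelatine in a medium with serum replacement and little serum, at day 0 of differentiation, again with 1 array without and 1 with OHT. No cell of the 4 arrays received cycloheximide (CHX). For a setting of the change against another line, EB5 NERT cells without OHT and CHX were used, with 2 arrays of mesodermal cells at day 4 and 1 array of ESCm.

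The control cells are a single line, so the results describe that line. Time in culture, medium, serum and coating all changed together with differentiation and cannot be told apart from it. Nothing in the labels says that the array without and the array with OHT of a population came from separate cultures, so differences between them may be no more than technical. Fits of the control arrays alone set their p-values against these differences only. In the main fit, over all arrays of the series, most residual degrees of freedom came from NERT mesoderm arrays labelled as replicates. Whether those replicates were separate cultures is not stated in the labels either.

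Before gastrulation the cells of the epiblast leave the naive state, which ESC resemble, and pass through a formative and a primed state. In the primitive streak, signals of the Nodal, Wnt, BMP and FGF families turn on factors such as Brachyury, Eomes and Mixl1, and cells then lose epithelial contacts and become mesoderm that carries the receptors Flk1 (encoded by *Kdr*) and Pdgfra. ESC cultured on collagen IV without leukaemia inhibitory factor (LIF) are widely used to follow these steps in a dish. In low oxygen, the hypoxia-inducible factors bind a short core sequence in promoters and enhancers and turn on genes of glucose uptake, glycolysis and lactate export.

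Because 18 of 24 genes of glycolysis and the low oxygen response rose in control mesoderm, 4 promoters of such genes are shown first, with that core, ACGTG or CACGT on the other strand, in capitals. Each is the stretch of 200 bases just upstream of the transcription start, 5′ to 3′ on the strand of the gene, from RefSeq on GRCm38.p6.
Slc16a3: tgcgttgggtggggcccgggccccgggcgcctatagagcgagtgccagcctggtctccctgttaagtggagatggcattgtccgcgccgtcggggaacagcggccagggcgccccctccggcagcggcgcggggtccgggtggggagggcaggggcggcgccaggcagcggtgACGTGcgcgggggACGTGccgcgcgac
Bnip3: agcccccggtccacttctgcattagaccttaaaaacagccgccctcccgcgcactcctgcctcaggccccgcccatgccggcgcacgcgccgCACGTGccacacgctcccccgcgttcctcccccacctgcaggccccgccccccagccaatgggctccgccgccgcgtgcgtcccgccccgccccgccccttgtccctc
Pgk1: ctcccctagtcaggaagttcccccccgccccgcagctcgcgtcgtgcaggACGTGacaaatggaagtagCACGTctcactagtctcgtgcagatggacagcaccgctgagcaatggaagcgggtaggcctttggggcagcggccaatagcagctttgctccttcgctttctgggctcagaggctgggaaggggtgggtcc
Ldha: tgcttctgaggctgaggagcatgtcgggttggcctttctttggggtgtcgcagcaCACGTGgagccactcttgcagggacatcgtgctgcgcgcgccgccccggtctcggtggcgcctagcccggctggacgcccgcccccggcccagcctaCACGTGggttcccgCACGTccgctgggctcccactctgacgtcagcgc
The stretches lie at chr11:120948867-120949066, plus strand (*Slc16a3*), chr7:138909507-138909706, minus strand (*Bnip3*), chrX:106186900-106187099, plus strand (*Pgk1*) and chr7:46845604-46845803, plus strand (*Ldha*). In *Slc16a3* the core begins at -27 and at -14 from the start, and in *Pgk1* at -150 and at -131. At -108 in *Bnip3* and at -145 and -48 in *Ldha* the cores of both strands overlap in CACGTG, and *Ldha* has 1 more at -34. A match is a description of the letters and says nothing about which factor bound there.

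The promoter of *Zfp42*, a gene commonly used to mark undifferentiated ESC, is shown with the octamer motif that POU factors such as Oct4 recognize, ATGCAAAT or ATTTGCAT on the other strand, in capitals (chr8:43307010-43307209, minus strand, GRCm38.p6).
Zfp42: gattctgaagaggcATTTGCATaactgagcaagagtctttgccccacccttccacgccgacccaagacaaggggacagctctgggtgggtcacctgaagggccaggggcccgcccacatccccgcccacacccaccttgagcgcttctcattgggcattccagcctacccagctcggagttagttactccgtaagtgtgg
The octamer begins at -186. It is held by 570 of 32851 RefSeq promoter windows (1.74%).

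Expression was read as dChip model-based expression intensity, a linear measure of the brightness of a probe set that the authors had normalized between arrays. The medians of the 4 arrays were 42.0 to 43.5, and 46.2% to 47.1% of the 45037 probe sets were at 50 or more. Differences are given on the scale of log2(intensity + 25), as control mesoderm minus control ESCm, and this constant understates the change of dim genes. Of 25637 probe sets tested with limma over all 16 arrays, 3297 (12.9%) were higher and 2088 (8.14%) lower in control mesoderm at an adjusted p under 0.05. When each gene was read from its brightest probe set, 1901 of 12682 genes (15%) were higher and 1059 (8.35%) lower, and in 1118 of the 1381 called genes with several probe sets tested all of these moved the same way. Both mesoderm arrays lay above both ESCm arrays in 10354 probe sets (40.4%) and below them in 8413 (32.8%), so arrays that stand apart say little by themselves. All 5385 probe sets called moved the same way in the pair of arrays without OHT and in the pair with OHT. The calls rest on these same arrays, so this gives no separate support. The 4 control arrays fitted alone, with 2 residual degrees of freedom, gave 7056 higher and 5337 lower probe sets, and leaving out any of the 4 gave 1586 to 1735 higher and 893 to 977 lower.

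By the fold criteria that the study had used for OHT, at least 2-fold with a difference over 50 but here without its detection call, 1178 of 45037 probe sets (2.62%) were higher and 667 (1.48%) lower in control mesoderm, taken on the mean of both arrays. Applied to the arrays with and without OHT of a single population, the same criteria gave 11 probe sets in control mesoderm and 22 in control ESCm. Over the probe sets tested, the root mean square difference in log2 was 0.52 to 0.526 between an array of control mesoderm and an array of control ESCm. It was 0.164 between both control mesoderm arrays and 0.172 between both control ESCm arrays.

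**Figure D1:**
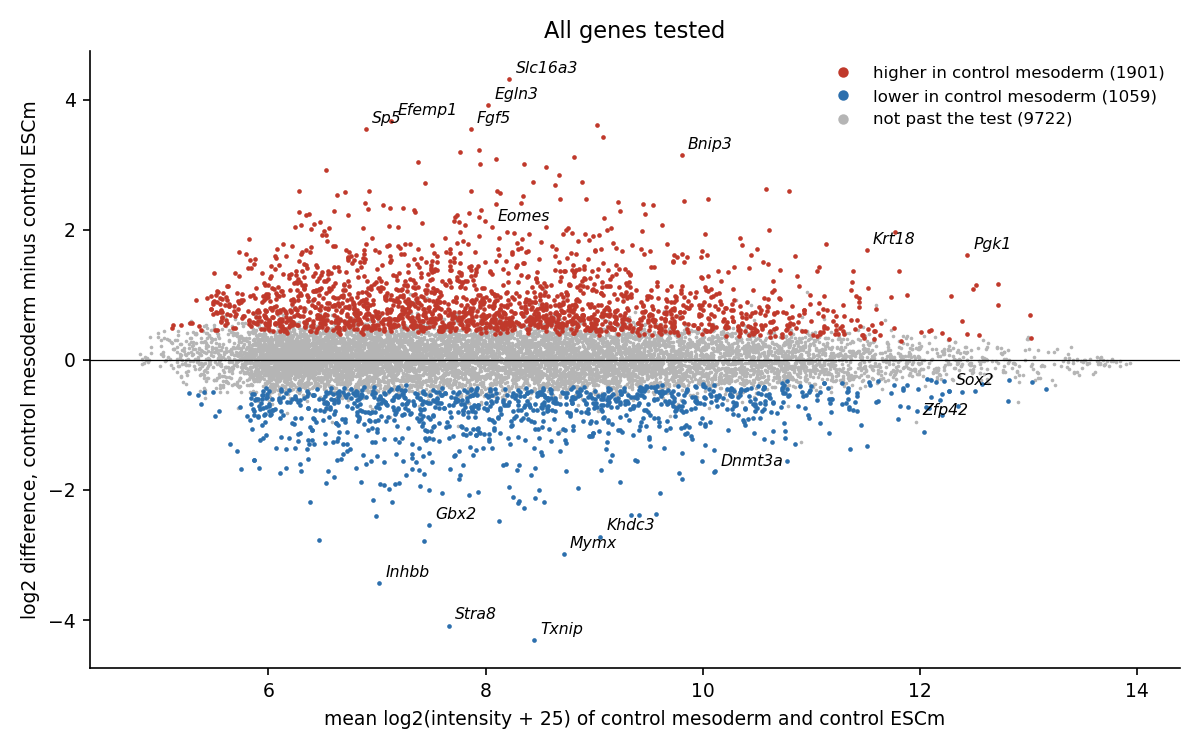
Log2 difference (control mesoderm minus control ESCm) of each of the 12682 genes tested, against the mean log2(intensity + 25) of both populations. Red points are the 1901 genes higher and blue points the 1059 genes lower in control mesoderm, and the widest differences are those of *Slc16a3* (log2 difference 4.32) and *Txnip* (log2 difference -4.30).

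The label was first set against genes that define the stages. *Zfp42* (Rex1) had 2848 and 2859 in control mesoderm, against 5502 and 5554 in control ESCm. Both mesoderm arrays lay below both ESCm arrays, at -0.95 (SE 0.32) on the log2 scale, but the difference missed the threshold over all 16 arrays (adjusted p = 0.0528). The replicates of NERT mesoderm without OHT, which enter the spread, were themselves apart (intensities of 781 and 1589). Limma over the 4 control arrays alone called the fall (adjusted p = 8.81e-09), but that fit called 5337 of all 25637 probe sets tested lower. *Eomes*, a T-box factor of the streak, had 505 and 525 in control mesoderm, against 111 and 102 in control ESCm, and *Mixl1*, a homeobox factor of the streak, 250.3 and 237 in control mesoderm, against 55.8 and 58.1 in control ESCm. *Fgf8*, a growth factor made in the streak, had 215 and 241 in control mesoderm, against 10.6 and 6.64 in control ESCm. In all 3 the arrays of the populations were apart, and the differences were 2.04 (SE 0.16, adjusted p = 3.72e-06), 1.71 (SE 0.22, adjusted p = 0.000143) and 2.91 (SE 0.30, adjusted p = 3.30e-05), which puts *Fgf8* at least 9.13-fold higher when the ESCm mean is set to no less than 25.

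4 genes often used to define mesodermal progenitors did not rise. *Kdr* had 106 and 128 in control mesoderm, against 172 and 129.9 in control ESCm, lower on both mesoderm arrays but nearly touching, at a difference of -0.30 (SE 0.20, adjusted p = 0.332). *Mesp1*, a factor of nascent mesoderm, had 242 and 227 in control mesoderm, against 256 and 236 in control ESCm, and *Tbx6*, a factor of paraxial mesoderm, 36.8 and 25.9 in control mesoderm, against 25.2 and 22.3 in control ESCm. The arrays of *Mesp1* overlapped, those of *Tbx6* were slightly higher in control mesoderm, and neither gene was called. *Pdgfra* ran the other way, with 29.5 and 40.6 in control mesoderm, against 156 and 138 in control ESCm, and fell by 1.52 (SE 0.26, adjusted p = 0.00134). Brachyury was not analysed here. *Pdgfra* thus ran against the label of mesodermal progenitor, and *Kdr*, *Mesp1* and *Tbx6* gave no call either way. In the wider mesoderm list 5 of 20 genes rose and 2 fell (25% and 10%, against 15% and 8.35% of all genes). The name control mesoderm is used below as the label of these arrays. In arrays of whole cultures, fewer cells of a type and less RNA per cell cannot be told apart.

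**Figure D2:**
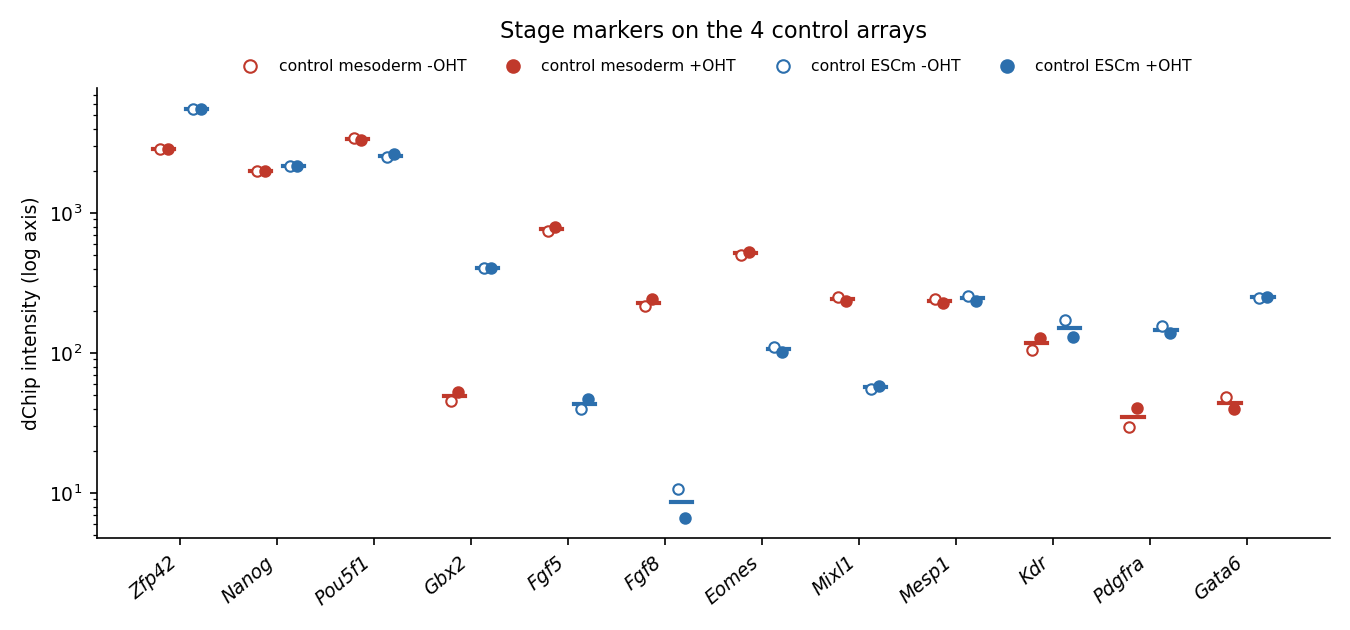
dChip intensity (log axis) of 12 stage markers on the 4 control arrays, control mesoderm in red and control ESCm in blue, with open points without OHT, filled points with OHT, and bars at the mean of both. *Fgf5*, *Fgf8*, *Eomes* and *Mixl1* stood higher in control mesoderm, *Gbx2*, *Pdgfra* and *Gata6* lower, and the arrays of *Mesp1* overlapped.

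Of 19 naive pluripotency genes, 7 fell in control mesoderm (36.8%, against 8.35% of all genes), none rose and 12 were not called. The median log2 difference was -0.71, against 0.04 over all 12682 genes. *Gbx2*, a homeobox factor that sustains the naive state, had the widest fall of the list, with 45.5 and 52.9 in control mesoderm, against 404 and 407 in control ESCm. Its arrays were far apart, at -2.54 (SE 0.24, adjusted p = 1.77e-05) or 8.24-fold lower. The nuclear receptor *Nr5a2* (log2 difference -1.33, SE 0.39, adjusted p = 0.028) and *Dppa3*, a maternal factor of early embryos (log2 difference -1.16, SE 0.29, adjusted p = 0.0134), also fell. *Klf4* had 609 and 581 in control mesoderm, against 1071 and 1124 in control ESCm, and *Esrrb* 650.2 and 649 in control mesoderm, against 1087 and 1062 in control ESCm. Both pairs of arrays were apart, but neither was called over all 16 arrays (adjusted p = 0.075 and 0.139). Limma on the 4 control arrays alone called 16 of the 19 genes lower. That fit has 2 residual degrees of freedom and called 5337 of all 25637 probe sets tested lower and 7056 higher. *Nanog* had 1980.5 and 1987 in control mesoderm, against 2176 and 2151 in control ESCm, a difference of -0.12 (SE 0.13). *Dppa5a* (10786 and 10956 in control mesoderm, against 10293 and 10163 in control ESCm) and *Klf2* (1659 and 1603 in control mesoderm, against 1618 and 1512 in control ESCm) were close to level. With each of the 4 arrays left out in turn, 2 to 4 of the 19 genes were called lower.

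Genes of the core network and of the formative state split evenly, with 5 of 19 higher and 5 lower (26.3% each, against 15% and 8.35% of all genes). With an array left out, 3 or 4 passed each way. The 4 control arrays alone gave 11 higher and 8 lower, in a fit that called 7056 and 5337 of all 25637 probe sets. *Fgf5*, the growth factor by which the postimplantation epiblast is recognized, had 745 and 798 in control mesoderm, against 39.5 and 46.7 in control ESCm, 17.9-fold higher at a log2 difference of 3.55 (SE 0.44, adjusted p = 0.000119). *Pou3f1* (Oct6), another mark of that stage, had 1830.2 and 1825 in control mesoderm, against 928 and 1020.5 in control ESCm, and rose by 0.89 (adjusted p = 0.000314). The kinase gene *Pim2* (log2 difference 2.38, SE 0.32, adjusted p = 0.000253), the RNA-binding protein gene *Lin28a* (log2 difference 0.55) and *Wnt8a* (log2 difference 0.89) rose as well. *Pou5f1* (Oct4) had 3449 and 3303 in control mesoderm, against 2490.5 and 2624 in control ESCm. The arrays did not overlap, but the difference of 0.40 was not called (adjusted p = 0.439). *Sox2*, the partner of Oct4, had 4182 and 4159 in control mesoderm, against 5785 and 5842 in control ESCm, and fell by 0.48 (adjusted p = 0.00547). *Dppa2*, *Dppa4*, *Foxd3* and *Dnmt3a* were the other members that fell.

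The genes of LIF signalling included *Lifr*, the LIF receptor, which had 458 and 494 in control mesoderm, against 1298 and 1212 in control ESCm, and fell by 1.35 (adjusted p = 0.000139). *Socs3* and *Bcl3*, both targets of Stat3, fell by 0.76 and 1.40, *Junb* rose, and the other 6 of 10 were not called. The list thus had 30% lower and 10% higher, against 8.35% and 15% of all genes. Leaving out an array gave 2 falls and at most 1 rise.

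Of 16 primitive streak genes tested, 9 rose (56.2%, against 15% of all genes) and none fell, and the list median was 0.80. The widest rise was that of *Sp5*, a Wnt target, with 387 and 375 in control mesoderm, against 14.2 and 5.75 in control ESCm, at least 15.2-fold higher (log2 difference 3.55, SE 0.16, adjusted p = 1.43e-07). *Evx1*, a homeobox factor of the posterior streak, had 142 and 131 in control mesoderm, against 13 and 13.4 in control ESCm. These arrays were apart, at 2.08 (SE 0.22, adjusted p = 4.34e-05). *Wnt3*, the ligand needed for streak formation, had 82.8 and 62.5 in control mesoderm, against 5.14 and 8.12 in control ESCm, and rose by 1.62 (adjusted p = 0.000103). *Nodal* (1578 and 1688 in control mesoderm, against 1011 and 1046 in control ESCm, log2 difference 0.65), *Sp8* (log2 difference 1.42) and *Gsc*, which marks the anterior streak (log2 difference 0.89), made up the rest. *Foxa2*, *Cdx1*, *Cdx2*, *Cdx4*, *Lhx1* and *Wnt3a* were not called or not tested, with intensities below 100 on all 4 arrays. Leaving out each of the 4 arrays kept 7 or 8 genes on the higher side.

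Among 20 genes of nascent, paraxial and lateral mesoderm, 5 rose and 2 fell, and the median of 0.08 was near that of all genes. *Cited1*, a transcriptional co-regulator, had 249.6 and 246 in control mesoderm, against 22.5 and 30.2 in control ESCm (log2 difference 2.41, SE 0.37, adjusted p = 0.000628). The apelin receptor *Aplnr* had 68.1 and 70 in control mesoderm, against 2.59 and 7.12 in control ESCm, and its ligand *Apln* 156 and 159 in control mesoderm, against 38 and 41.8 in control ESCm, with log2 differences of 1.66 and 1.49. The Wnt agonist *Rspo3* (log2 difference 1.33) and *Cyp26a1*, which breaks down retinoic acid (log2 difference 0.97), rose too. *Tcf15* fell, with 615 and 563 in control mesoderm, against 2048 and 1903 in control ESCm (log2 difference -1.71, SE 0.22, adjusted p = 0.000173). *Hand1*, *Foxf1*, *Foxc1*, *Foxc2*, *Snai1* and *Mesp2* were within 0.12 of no difference.

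**Figure D3:**
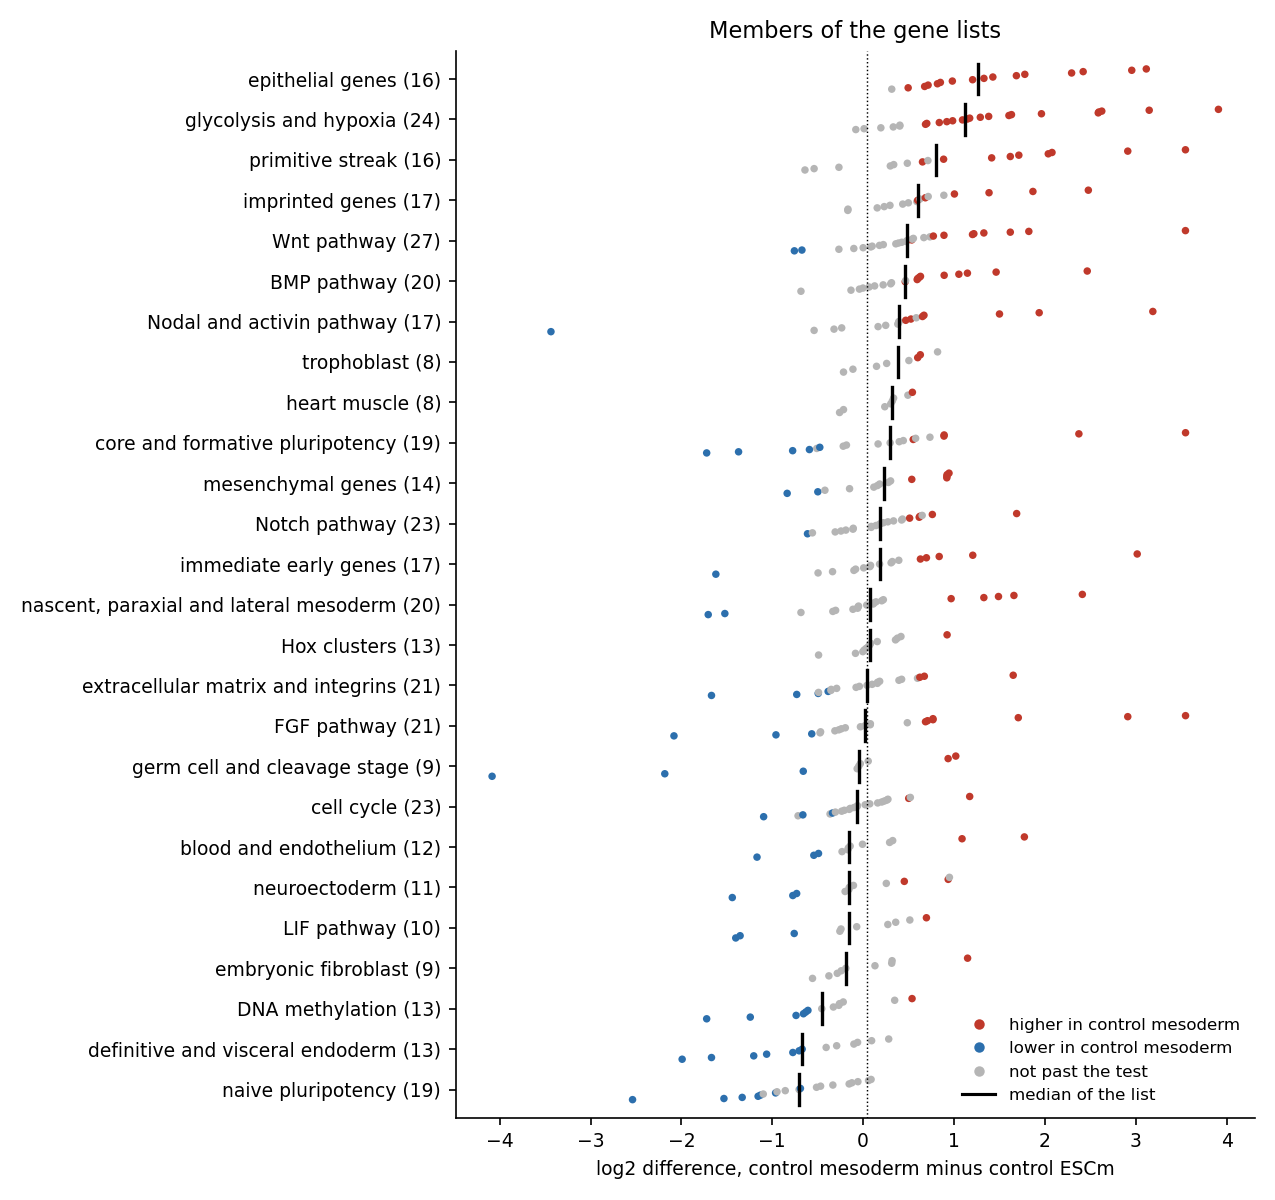
Log2 difference (control mesoderm minus control ESCm) of every tested member of 26 gene lists, with the number tested in parentheses, the list median as a black bar and the median of all genes as a dotted line. Red members were higher and blue members lower in control mesoderm. Epithelial genes and genes of glycolysis and hypoxia lie highest, with medians of 1.27 and 1.12, and naive pluripotency genes lowest.

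Of 16 epithelial genes tested, 15 rose (93.8%, against 15% of all genes) and none fell, with a median of 1.27. *Cldn7*, a claudin of tight junctions, had 1316 and 1286 in control mesoderm, against 131 and 125 in control ESCm, 10.2-fold higher (log2 difference 3.12, SE 0.20, adjusted p = 1.10e-06). The keratin *Krt19* had 1059 and 994 in control mesoderm, against 119 and 102 in control ESCm, and the desmosomal plaque protein gene *Dsp* 1343 and 1366 in control mesoderm, against 229 and 236 in control ESCm. In both, the arrays of the populations were far apart, at 2.96 and 2.42 on the log2 scale. The keratins *Krt8* (log2 difference 1.78) and *Krt18* (log2 difference 1.69), the claudins *Cldn3*, *Cldn4* and *Cldn6* (0.72 to 2.29) and the splicing factor *Esrp1* (log2 difference 1.43) rose alongside. *Cdh1* (E-cadherin) had 3923 and 4273 in control mesoderm, against 2934 and 2859 in control ESCm, a rise of 0.50 (SE 0.10, adjusted p = 0.00402). *Grhl2*, a transcription factor of epithelia, was the member not called (445 and 479.8 in control mesoderm, against 383 and 351 in control ESCm). When the 4 arrays were left out in turn, 10 or 11 of the 16 passed.

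Of 14 mesenchymal genes, 5 rose and 2 fell (35.7% and 14.3%, against 15% and 8.35% of all genes), though with an array left out at most 1 rise passed. *Cdh2* (N-cadherin) had 342 and 366 in control mesoderm, against 189 and 161 in control ESCm (log2 difference 0.92, adjusted p = 0.0069, and between 0.031 and 0.0733 with each array left out). *Vim* (vimentin) had 4470.2 and 4496 in control mesoderm, against 6322 and 6365 in control ESCm, and fell by 0.50 (adjusted p = 0.00193), as did *Zeb1*, a repressor of *Cdh1* (0.84). *Snai1* and *Snai2*, the repressors that start the loss of epithelial contacts, were not called. *Snai1* had 55 and 67.5 in control mesoderm, against 56.1 and 52.5 in control ESCm, with overlap, and *Snai2* 29.7 and 38.5 in control mesoderm, against 62 and 46.4 in control ESCm, lower on both mesoderm arrays.

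In glycolysis and the low oxygen response 18 of 24 genes rose (75%, against 15% of all genes), none fell, and 17 passed with any of the 4 arrays left out. Outside that list, *Slc16a3*, which exports lactate, had the largest rise of all genes, with 1366 and 1214 in control mesoderm, against 57.7 and 27.3 in control ESCm. The mesoderm arrays stood 30.4-fold above the ESCm arrays (log2 difference 4.32, SE 0.25, adjusted p = 6.65e-07). *Egln3*, an oxygen-sensing hydroxylase that is itself a target of the hypoxia-inducible factors, had 1094 and 878 in control mesoderm, against 43.8 and 39.9 in control ESCm, 23.6-fold higher (log2 difference 3.91, SE 0.22, adjusted p = 4.58e-07). *Bnip3*, which drives the removal of mitochondria in low oxygen, had 2775 and 2514 in control mesoderm, against 266 and 286 in control ESCm (log2 difference 3.15, SE 0.20, adjusted p = 9.34e-07). The groups were far apart in each of these, and the rule that named them admits only genes with arrays apart.

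Along the pathway, the glucose transporters *Slc2a1* (8793 and 8619 in control mesoderm, against 4078 and 3757 in control ESCm) and *Slc2a3* (10020.2 and 10238 in control mesoderm, against 4458 and 4501 in control ESCm) were 2.22- and 2.26-fold higher. The hexokinases *Hk1* and *Hk2* were not called (-0.08 and 0.40). Of the phosphofructokinases only *Pfkl* passed, with 3794 and 3775 in control mesoderm, against 637 and 549.8 in control ESCm (log2 difference 2.63, SE 0.31, adjusted p = 8.13e-05), against differences of 0.33 in *Pfkm* and 0.01 in *Pfkp*. The aldolases *Aldoa* (log2 difference 1.09) and *Aldoc* (log2 difference 2.59), triose phosphate isomerase *Tpi1* (log2 difference 1.96) and phosphoglycerate kinase *Pgk1* (9602 and 9690.4 in control mesoderm, against 3193 and 3117 in control ESCm, log2 difference 1.6, SE 0.10, adjusted p = 1.10e-06) rose. The mutase *Pgam1* was not called (log2 difference 0.20, SE 0.11). *Pkm*, the last step to pyruvate, rose by 0.84 and *Ldha*, which turns pyruvate into lactate, by 0.69, with 10545 and 10409 in control mesoderm, against 6450.1 and 6549 in control ESCm. Of the kinases that hold pyruvate back from mitochondria, *Pdk3* rose (log2 difference 0.70) and *Pdk1* was not called (log2 difference 0.40). *Ndrg1*, *Ero1a*, *P4ha1*, *P4ha2*, *Ankrd37* and *Vegfa*, known for their response to low oxygen, rose by 0.92 to 2.60.

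In contrast, *Epas1*, which encodes the hypoxia-inducible factor HIF2α, fell, with 258 and 259 in control mesoderm, against 1471 and 1428 in control ESCm (log2 difference -2.38, SE 0.17, adjusted p = 2.00e-06). *Txnip*, an inhibitor of glucose uptake whose own transcription follows glucose, had 48.4 and 58.8 in control mesoderm, against 1597 and 1454 in control ESCm. It was 28.4-fold lower, the widest fall of all genes on this scale (log2 difference -4.30, SE 0.19, adjusted p = 1.43e-07), though with a constant of 5 in place of 25 *Stra8* fell further, at -4.80 against -4.71. *Arrdc4*, a relative of *Txnip* that also restrains glucose uptake, had 39.1 and 41.7 in control mesoderm, against 381 and 479.6 in control ESCm, 10.7-fold lower (log2 difference -2.79, SE 0.19, adjusted p = 1.61e-06). In both, all mesoderm values lay under all ESCm values, as the rule that named them requires. The oxygen and glucose of the media were not measured in these files, and the part of the media in these differences cannot be told apart from that of differentiation.

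Of the 18 genes of this list that rose, 16 had a RefSeq promoter window reaching 250 bases upstream and 50 bases downstream of the start. The core ACGTG (either strand) was in 11 of the 16, against 25.7% of the windows of all genes tested, 26.4% of those of genes higher in control mesoderm, and 19.6% of 32851 windows. This motif was chosen after the values had been seen, and the share is a description of these windows. The E-box CACGTG, which overlaps it, was in 2 of the 16 (12.5%). This was near the 10.2% of windows of all genes tested and the 11.1% of those of genes higher in control mesoderm, with 7.15% of all windows. Among motifs for stage factors, the octamer was in 1.26% of windows of genes that rose and 1.49% of those that fell, against 1.35% of all tested. The T-box motif AGGTGTGA was in 0.399%, against 0.917% and 0.841%, and the KLF motif GGGNGTGGG in 10.6%, against 8.83% and 10.0%. The E-box CACCTG was in 20%, 16.7% and 18% in the same order, FOXH1 motifs (AATCCACA, AATACACA) in 1.4%, 0.803% and 0.978%, and TCF/LEF motifs (CTTTGATC, CTTTGAAG) in 2.33%, 1.95% and 1.81%.

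**Figure D4:**
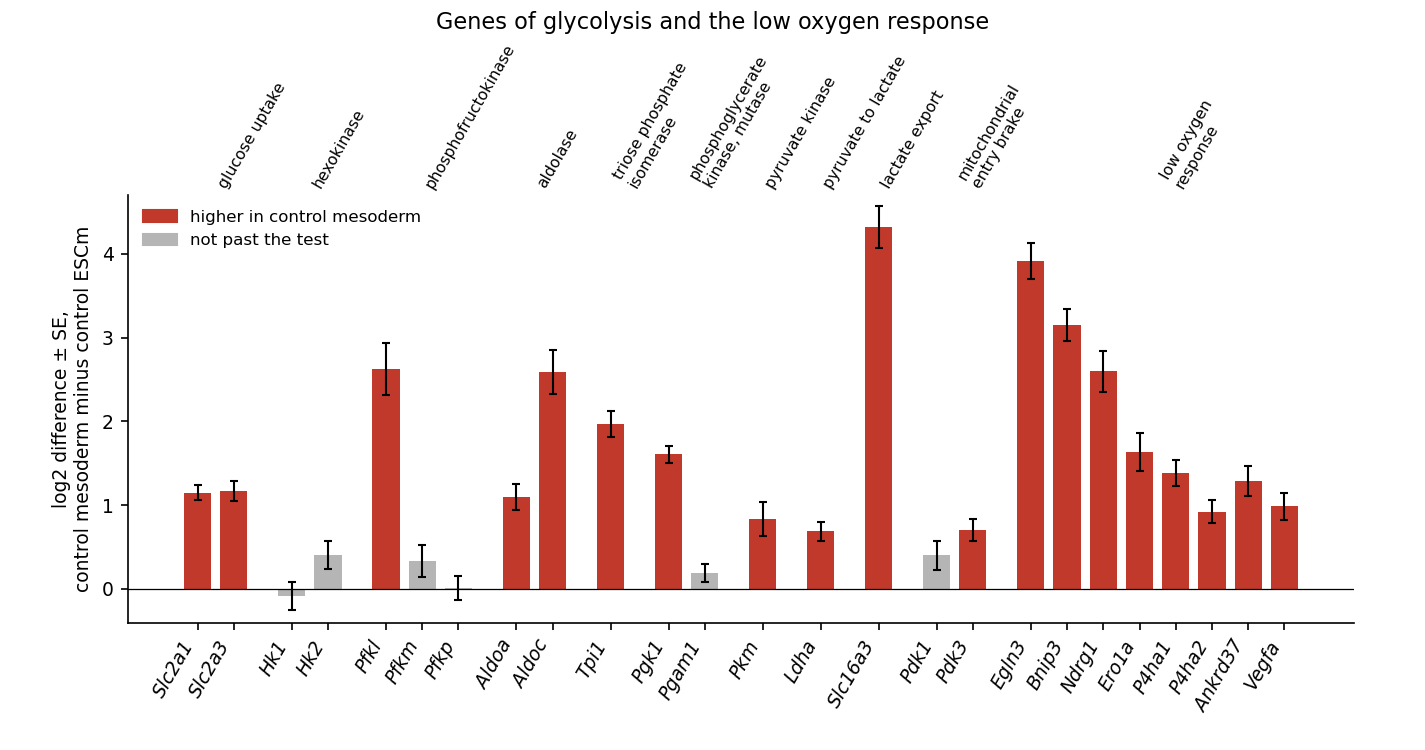
Log2 difference (control mesoderm minus control ESCm) with its SE from limma for genes of glucose uptake, glycolysis, lactate export and the low oxygen response, in the order of the pathway. Red bars passed the test and grey bars did not. *Slc16a3*, *Egln3* and *Bnip3* are highest, and *Hk1* and *Pfkp* lie near 0.

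Signalling genes were ordered by their roles. Of 17 genes of the Nodal and activin pathway, 7 rose and 1 fell (41.2% and 5.88%, against 15% and 8.35% of all genes). The ligand *Nodal* and its feedback inhibitors *Lefty1* (1403 and 1408 in control mesoderm, against 459.8 and 502 in control ESCm) and *Lefty2* (961 and 881 in control mesoderm, against 229 and 215 in control ESCm) rose, the inhibitors by 1.5 and 1.94. *Fst* (follistatin), which binds activin, had 729 and 543 in control mesoderm, against 42.6 and 51.3 in control ESCm, 13.6-fold higher (log2 difference 3.19, SE 0.26, adjusted p = 5.10e-06). *Inhbb*, the beta B subunit of activin B, had 11.8 and 17.1 in control mesoderm, against 419.8 and 382 in control ESCm, at least 16-fold lower (log2 difference -3.44, SE 0.16, adjusted p = 1.43e-07). The groups did not touch in any of the 4, which for *Fst* and *Inhbb* the rule that named them requires. The receptor *Acvr2a*, the signal transducer *Smad4* and the repressor *Skil* rose by 0.47 to 0.67. With an array left out, 2 to 4 of the 7 rises passed.

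In the BMP pathway 10 of 20 genes rose (50%, against 15% of all genes) and none fell. The targets *Id1*, *Id2*, *Id3* and *Id4*, inhibitors of basic helix-loop-helix factors, all rose, led by *Id2* with 1007 and 888 in control mesoderm, against 155 and 147 in control ESCm (log2 difference 2.47, SE 0.29, adjusted p = 8.24e-05). The homeobox targets *Msx1* and *Msx2*, the receptors *Bmpr1a* and *Bmpr2*, the antagonist *Nog* and the pseudoreceptor *Bambi* rose by 0.46 to 1.05. The ligand *Bmp4* had 693 and 638 in control mesoderm, against 1073 and 1095 in control ESCm, lower on both arrays but not called (log2 difference -0.68, adjusted p = 0.124). Only 2 to 5 of the 10 passed with an array left out.

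Of 27 Wnt pathway genes, 9 rose and 2, *Tcf7l2* and the receptor *Fzd5*, fell (33.3% and 7.41%, against 15% and 8.35% of all genes). With an array left out 5 to 8 rises and 1 fall passed. The ligands *Wnt3*, *Wnt4* (422 and 366 in control mesoderm, against 91.5 and 94.5 in control ESCm, log2 difference 1.82) and *Wnt8a*, the agonist *Rspo3*, the receptors *Fzd8* and *Fzd10* and the soluble inhibitor *Sfrp1* rose. *Axin2*, a negative regulator and common readout of the pathway, had 275 and 295 in control mesoderm, against 110.2 and 109 in control ESCm (log2 difference 1.20, SE 0.16, adjusted p = 0.000182). *Dkk1*, an antagonist, was not called (176 and 180.5 in control mesoderm, against 156 and 142 in control ESCm), nor was *Ctnnb1*, the transducer β-catenin (log2 difference 0.00, SE 0.12).

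Of 21 FGF pathway genes, 7 rose and 3 fell (33.3% and 14.3%, against 15% and 8.35% of all genes). With an array left out 4 or 5 of the rises and 2 of the falls passed. The list median of 0.02 was near that of all genes. Beside *Fgf5* and *Fgf8*, the ligand *Fgf15*, the receptor *Fgfr1* (512 and 522 in control mesoderm, against 283 and 303 in control ESCm), the antagonists *Il17rd* and *Spry1* and the phosphatase *Dusp4* rose by 0.69 to 1.71. *Etv4*, a transcriptional target of FGF signalling, had 89.3 and 84.3 in control mesoderm, against 459 and 438 in control ESCm, 5.17-fold lower (log2 difference -2.08, SE 0.21, adjusted p = 2.44e-05). The inhibitors *Spry4* and *Spred2* also fell. *Egr1*, an immediate early target of the same cascade, had 139 and 136 in control mesoderm, against 509 and 444 in control ESCm, and fell by 1.62 (adjusted p = 4.84e-06). Of 17 immediate early genes, 5 rose (29.4%, against 15% of all genes), and 3 or 4 rises passed with an array left out. Among these *Ier3* was widest, with 989 and 827 in control mesoderm, against 85.7 and 94 in control ESCm (log2 difference 3.02).

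Of 23 genes of the Notch pathway, 5 rose and 1 fell in these cells without the Notch1 construct (21.7% and 4.35%, against 15% and 8.35% of all genes), so the list as a whole lay near the background. The receptor *Notch3* had 869 and 937 in control mesoderm, against 278 and 248 in control ESCm (log2 difference 1.69, SE 0.33, adjusted p = 0.00326), and *Notch2* rose by 0.63. *Notch1* had 199 and 196 in control mesoderm, against 301 and 303 in control ESCm, and was not called (adjusted p = 0.086). The target *Hey1* (45 and 60.9 in control mesoderm, against 19.8 and 21.6 in control ESCm) and the regulators *Maml1* and *Dtx4* rose, *Rbpj*, the DNA-binding factor of the pathway, fell (1607 and 1787 in control mesoderm, against 2674 and 2534 in control ESCm, log2 difference -0.61), and *Hes1* was not called (218 and 204 in control mesoderm, against 124 and 127 in control ESCm). With an array left out 1 or 2 of the rises passed and the fall of *Rbpj* did not.

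Of 9 germ cell and cleavage stage genes tested, 2 rose and 3 fell (22.2% and 33.3%, against 15% and 8.35% of all genes). The median of -0.05 was near that of all genes. Among the 15 widest falls were 4 genes known from the germ line. *Stra8*, which starts meiosis, had 25.8 and 22.8 in control mesoderm, against 817 and 804 in control ESCm, at least 32.4-fold lower (log2 difference -4.08, SE 0.15, adjusted p = 4.27e-08). *Hormad1*, a protein of the meiotic chromosome axis, had 100 and 86.1 in control mesoderm, against 616 and 654 in control ESCm, *Khdc3*, expressed in oocytes and ESC, 194 and 172 in control mesoderm, against 1344 and 1335 in control ESCm, and *Sohlh2*, a germ cell transcription factor, 126 and 117 in control mesoderm, against 643 and 655 in control ESCm. All were apart between the populations, as the rule that named them requires, at -2.20 to -2.72. *Dazl*, a germ cell RNA-binding protein, fell by 2.18 with 159.8 and 139 in control mesoderm, against 768 and 763 in control ESCm. *Prdm1*, which specifies primordial germ cells, rose (98.4 and 87.7 in control mesoderm, against 27.8 and 47.1 in control ESCm, log2 difference 0.94), as did *Dnd1*, and *Ddx4* and *Sycp3* were within 0.07 of no difference.

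DNA methylation genes fell more often than they rose, with 6 of 13 lower and 1 higher (46.2% and 7.69%, against 8.35% and 15% of all genes, median -0.46). The de novo methyltransferase *Dnmt3a* had 587 and 577 in control mesoderm, against 2036 and 1919.7 in control ESCm, 3.4-fold lower (log2 difference -1.72, SE 0.12, adjusted p = 2.16e-06). Its cofactor *Dnmt3l* (log2 difference -0.61), the dioxygenases *Tet1* and *Tet2*, *Uhrf1*, which recruits the maintenance enzyme, and *Zfp57*, which protects imprints (log2 difference -1.24), fell too. *Dnmt3b* had 4211 and 4355 in control mesoderm, against 5171 and 4812 in control ESCm, and was not called. Without any single array 3 or 4 falls and no rise passed. Of 17 imprinted genes, 6 rose (35.3%, against 15% of all genes) and none fell. *Plagl1*, a growth regulator, had 2437 and 2519.97 in control mesoderm, against 415 and 433 in control ESCm (log2 difference 2.48, SE 0.16, adjusted p = 1.10e-06). *Nnat* (log2 difference 1.87), *Peg3* (log2 difference 1.39) and *Ndn* (log2 difference 1.00) were other rises.

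The other named rises were *Efemp1*, an extracellular matrix protein (455 and 492 in control mesoderm, against 19.2 and 9.59 in control ESCm, log2 difference 3.67), *Igfbp3*, a carrier of insulin-like growth factors (1868 and 1725 in control mesoderm, against 115 and 134 in control ESCm, log2 difference 3.61), *Fndc3c1* (log2 difference 3.43), the scavenger receptor *Colec12* (log2 difference 3.23), *Ccng2* (cyclin G2, 3.09), *Irs1*, the insulin receptor substrate (log2 difference 3.04), and the growth hormone receptor *Ghr* (log2 difference 3.0). Their adjusted p-values were 7.76e-06 or lower in limma. Among the falls were *Mymx*, a peptide of myoblast fusion (124 and 126 in control mesoderm, against 1195 and 1129.7 in control ESCm, log2 difference -2.98), the tetraspanin *Cd37* (log2 difference -2.78), *Ttn* (titin, -2.40, with 2 of 3 probe sets in that direction), *Rasgrp2*, an exchange factor of Rap (log2 difference -2.37), and the lipase *Liph* (log2 difference -2.28). The noncoding RNA *Malat1* had 226 and 324 in control mesoderm, against 1345 and 1722 in control ESCm (log2 difference -2.39, SE 0.68, adjusted p = 0.0251), but only 4 of its 7 probe sets moved that way, and with an array left out the adjusted p was between 0.0796 and 0.147.

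Markers of other cell types the cultures could hold were read for the whole list. Of 13 genes of definitive and visceral endoderm, 7 fell in control mesoderm (53.8%, against 8.35% of all genes) and none rose. With an array left out 4 to 6 of the falls passed. *Gata6* had 48.5 and 39.9 in control mesoderm, against 249 and 250.3 in control ESCm, *Sox17* 113 and 104 in control mesoderm, against 272 and 295 in control ESCm, and *Lama1*, a laminin of the basement membrane, 158 and 187 in control mesoderm, against 588 and 613 in control ESCm. All were higher in control ESCm, at -1.99, -1.20 and -1.67, while *Afp*, *Apoa1*, *Cer1* and *Ttr* were under 50 on all 4 arrays. The summed intensity of the 18 endoderm genes read was 8309 and 8231 in control mesoderm, against 11068 and 11565 in control ESCm. Their part in the fall of *Pdgfra*, which primitive endoderm also expresses, was not tested.

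Of 8 trophoblast genes 2 rose, of 8 heart muscle genes 1, of 9 embryonic fibroblast genes 1, of 11 neuroectoderm genes 2 rose and 3 fell, and of 12 blood and endothelial genes 2 rose and 3 fell. Against 15% higher and 8.35% lower over all genes, such small counts set none of these lists apart. With an array left out at most 1 rise passed in each list, and in trophoblast and heart muscle sometimes none. Among blood and endothelial genes, *Flt1*, a receptor for Vegf, rose (179.9 and 212 in control mesoderm, against 43.8 and 35.3 in control ESCm, log2 difference 1.77) and *Sox7* fell (54.2 and 45.7 in control mesoderm, against 141 and 145 in control ESCm, log2 difference -1.17). The summed intensities were 2023 and 2071 against 2073 and 2042 for trophoblast, 687 and 686 against 579 and 569 for heart muscle, 3462 and 3364 against 3618 and 3810 for fibroblast, 872 and 859.9 against 1043 and 1026 for neuroectoderm, and 1281 and 1317 against 1269 and 1238 for blood and endothelium, in control mesoderm and then control ESCm. The defining genes of red cells (*Hba-x*, *Hbb-bh1*, *Klf1*) and *Nkx2-5* and *Myh7* of heart were under 50 on all 4 arrays. Neuronal genes were mixed: *Neurog1* and *Neurog2* were under 50, *Map2* rose (74.7 and 82.7 in control mesoderm, against 30 and 28.3 in control ESCm), *Tubb3* fell (155 and 134 in control mesoderm, against 275 and 253 in control ESCm), and outside the list *Nefl*, a neurofilament gene chosen after its values were seen, rose (2084 and 2087 in control mesoderm, against 333 and 399.6 in control ESCm).

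Of 23 genes of the cell cycle 2 were higher (*Cdk6* and *Cdkn1b*; 8.7%, against 15% of all genes) and 3 lower (13%, against 8.35%) (*Myc*, *Mcm5* and *Ccne1*, the last with 1099 and 1046 in control mesoderm, against 2406 and 2234 in control ESCm). Leaving out an array let 1 rise and 1 or 2 falls pass. Of 13 Hox genes tested only *Hoxa5* rose (337 and 336 in control mesoderm, against 156 and 176 in control ESCm), and 19 of the 27 read were under 50 on all 4 arrays. Of 21 genes of the extracellular matrix and integrins, 3 rose, led by the hyaluronan synthase *Has2* (169 and 162 in control mesoderm, against 33.8 and 37.3 in control ESCm, log2 difference 1.65), and 4 fell, among them *Lama1* and the collagen *Col4a2*. The share higher, 14.3%, was near the 15% of all genes, and with an array left out 1 or 2 rises and 1 fall passed.

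The change in mesoderm against ESCm was then compared with that of EB5 NERT cells without OHT, to see which differences the control line did not share. In NERT cells 5291 probe sets were higher and 2509 lower in mesoderm. Of these, 2781 were also higher and 1362 also lower in the control line, which is 84.3% of the control rises and 52.6% of the NERT rises, and 65.2% of the control falls and 54.3% of the NERT falls. The lists depend on how many arrays each line had, and only the difference of the changes was tested. Control line and clone cannot be told apart.

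The change was lower in the control line for 203 probe sets (0.792%) and higher for 43 (0.168%), or, by gene, for 143 (1.13%) and 20 (0.158%). With each of the 4 control arrays and both NERT mesoderm arrays left out in turn, 47 to 132 were lower and 5 to 43 higher, and every NERT change rests on a single ESCm array. Of the 203, 193 had risen in NERT mesoderm. The widest was *Aplnr*, with log2 changes of 1.66 in the control line and 5.12 in the NERT line, whose mesoderm arrays without OHT read 1005 and 1098. The difference between lines was -3.46 (SE 0.26, adjusted p = 0.000247). *Dkk1* changed by 0.22 in the control line and by 3.47 in the NERT line, and *Mixl1* by 1.71 and 3.85. *Pdgfra* fell in the control line and rose in the NERT line, where the mesoderm arrays read 90.5 and 155 and the ESCm array 24.6, a difference of -3.06 (SE 0.41, adjusted p = 0.00547). Of 16 primitive streak genes 4 and of 20 mesoderm genes 5 had a lower change in the control line.

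On the other side, *Dnmt3l* and *Foxd3*, both genes of undifferentiated ESC, fell less in the control line, by 0.61 and 0.59, than in the NERT line, where the changes were -2.74 and -2.56. The differences were 2.13 (SE 0.29, adjusted p = 0.00555) and 1.97 (SE 0.25, adjusted p = 0.00484). *Dppa2* followed, with changes of -1.37 and -2.82. No epithelial gene and 1 gene of glycolysis and hypoxia, *P4ha2*, differed between the lines, and median changes in the NERT line were 1.88 and 1.44 in these lists. For *Slc16a3* the difference between lines was -0.43 (adjusted p = 0.723), for *Stra8* -0.02 (adjusted p = 0.988) and for *Txnip* 0.76 (adjusted p = 0.299), and a p above the threshold does not show that the lines changed alike.

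**Figure D5:**
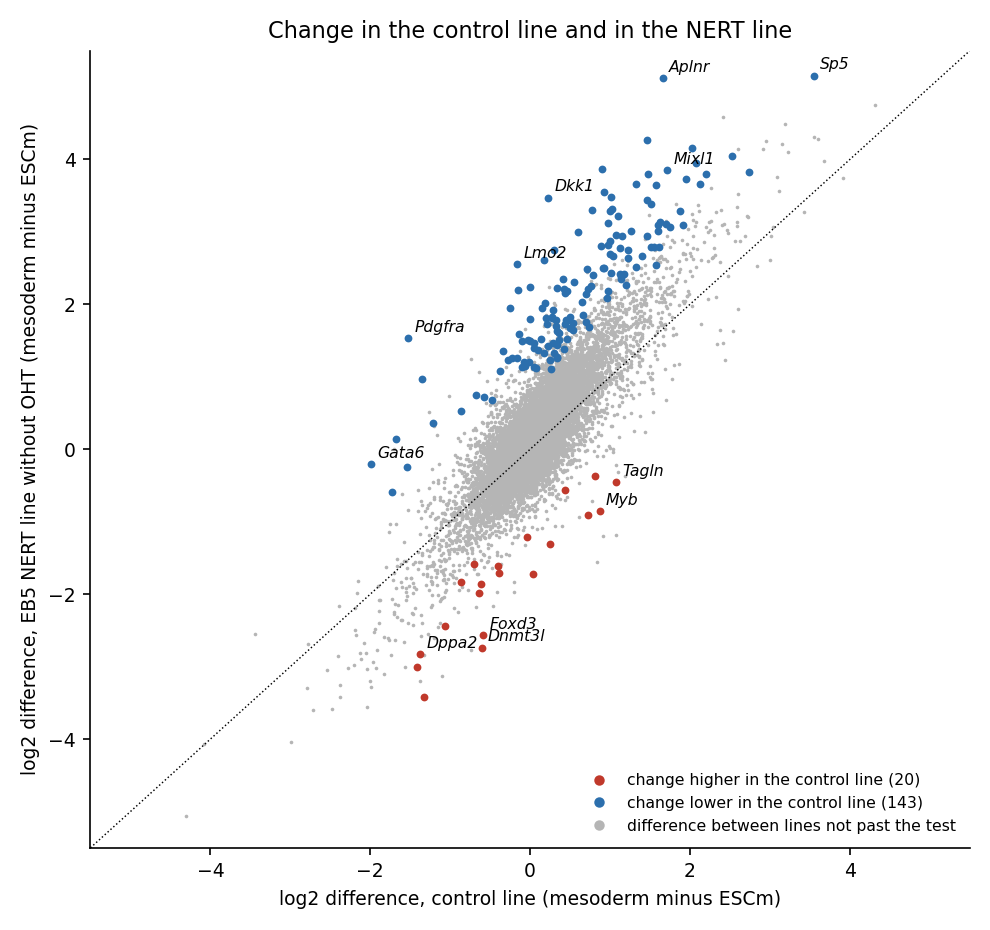
Log2 difference (mesoderm minus ESCm) of each tested gene in the control line (x axis) and in the EB5 NERT line without OHT (y axis), with a dotted line where both are equal. Blue points changed less upward in the control line (143 genes) and red points changed higher in the control line (20 genes) by the test of the difference. *Aplnr*, *Dkk1* and *Pdgfra* lie farthest above the line.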

How the data were processed

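Total RNA was labelled and hybridized to Affymetrix Mouse Genome 430 2.0 arrays, 1 per sample. The authors computed model-based expression intensities with dChip, after invariant set normalization against the control mesoderm array with OHT, and these deposited linear intensities of 45037 probe sets were used as given. Detection calls were not used here. Probe sets were named through the platform annotation, updated by RefSeq (34945 name 1 symbol, 932 several, 9160 none). A gene is its brightest probe set by mean over 16 arrays that names that gene alone (18193 genes), so near-identical genes may share signal.

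Groups were read from the labels. Probe sets with at least 1 of 10 group means at 50 or more were tested two-sided as log2(intensity + 25) in limma 3.58.1 (lmFit, then eBayes with a trend; R 4.3.3), and p-values of all 25637 probe sets were adjusted by Benjamini-Hochberg and called under 0.05. The 12 arrays of NERT cells entered for the spread (6 residual degrees of freedom, 2 from the control pairs). Only the NERT mesoderm groups had 2 arrays each, so the rest came from them, and 4 of those arrays had received CHX. The arrays without and with OHT of a control population were taken as its 2 arrays. Exact permutation of 2 against 2 arrays cannot reach 0.05, so limma is the test. The difference between lines is an interaction contrast in the same fit, with 1 array for NERT ESCm. Ratios are of means, with a mean under 25 set to 25. The calculation was tested on simulated data. The number of arrays limits the precision.

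Named genes are the 15 widest rises and 15 widest falls past the test with arrays apart, the 10 widest differences between lines each way, 4 stage markers and the members of 26 lists, of which 25 entries were not read from a probe set. Members and lists were chosen with earlier results of these data known, and 2 motifs and 2 lists after values were seen. Motifs were searched on both strands of RefSeq promoter windows (GRCm38.p6). Python 3.11.15, numpy 2.4.6, pandas 2.3.3 and matplotlib 3.10.9 made tables and figures. Other constants, filters, scalings, groupings and left-out arrays were tried.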

Additional observations from a re-analysis of the deposited data

Results flagged for a closer look

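The change in mesoderm against ESCm differed between the control line and the NERT line, by limma's test of the difference itself, for 203 probe sets with a lower and 43 with a higher change in the control line. Each value below is the control change minus the NERT change on the log2 scale.

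Among named genes of the streak and of mesoderm the change was lower in the control line for *Aplnr* (-3.46), *Pdgfra* (-3.06), *Nkx1-2* (-2.47), *Lhx1* (-2.45), *Rspo3* (-2.33), *Cyp26a1* (-2.15), *Mixl1* (-2.14), *Evx1* (-1.87), *Sp5* (-1.61) and *Dll3* (-1.20), and for *Lmo2*, a factor of blood progenitors (-2.72). It was lower too for the Wnt antagonist *Dkk1* (-3.25), the ligand *Wnt5b* (-1.75), the Notch target *Nrarp* (-1.79), *Hoxb1* (-1.93) and *Hoxb2* (-1.25). Genes that respond to interferon followed, with *Rtp4* (-2.96), *Oasl2* (-2.81), *Iigp1* (-2.62) and *Irgm2* (-2.53). In *Oasl2* the NERT mesoderm arrays read 609.5 and 665, against 9.46 in NERT ESCm, and the control arrays 96.7 and 123 in control mesoderm, against 20.7 and 27.1 in control ESCm.

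The endoderm genes *Gata6* (-1.79) and *Dab2* (-1.42) fell in the control line and changed by -0.21 and 0.75 in the NERT line. Of the endoderm list these 2 had a lower change in the control line, and 1 other member, *Rhox5* (1.20), had a higher change. *Grb10* (-1.79), *P4ha2* (-1.58), *Lamb1* (-1.42) and *Fabp7* (-1.33) also had a lower change in the control line.

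A higher change in the control line was measured for *Dnmt3l* (2.13), *Rpl39l* (2.09), *Foxd3* (1.97), *Atp1a4* (1.76), *Myb* (1.73), *Aire* (1.63), *Lrrc2* (1.59), *Pla2g1b* (1.56), *Tagln* (1.53), *Dppa2* (1.45) and *Rhox5* (1.20). *Myb*, a transcription factor of progenitor cells, rose in the control line (103 and 116 in control mesoderm, against 49.9 and 47.2 in control ESCm) and fell in the NERT line (21.1 and 18 in mesoderm, against 55.5 in ESCm). *Tagln* rose in the control line (log2 difference 1.08) and was at -0.45 in the NERT line, and was the least stable of the 20 widest differences, missing the threshold under 8 alternatives.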

How the results depend on the processing

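No paired analysis was possible because the control arrays carry no replicate numbers, except by OHT state. With OHT state as a block, over the 4 control arrays (1 residual degree of freedom), 7522 probe sets were higher and 5841 lower. The 4 arrays without a block gave 7056 and 5337, and 12 conditions as groups 2147 and 1279, where the residual degrees of freedom fell to 4. Leaving out each control array gave 1586 to 1735 higher and 893 to 977 lower. Without the 4 CHX arrays, an alternative chosen after seeing the data, 4695 were higher and 3155 lower. By fold alone, with no minimum difference, 2858 were higher and 2232 lower, and at 3-fold 500 and 260. Other constants, filters and scalings kept the counts within 1.5 times, but quantile normalization gave 3158 higher and 2900 lower, a different split from 3297 and 2088. The difference between lines was the least stable result: 5 higher and 39 lower with 12 conditions, 85 higher with quantile normalization, 121 lower where the mean of the 4 control arrays had to reach 50, and 184 and 707 without the CHX arrays. With each of 6 arrays left out it gave 5 to 43 higher and 47 to 132 lower, and the lone NERT ESCm array could not be left out. The cause of these shifts was not tested. Of the 34 genes named for the change itself, none reversed under any alternative run, and calls moved only for *Malat1* (5 alternatives lost it) and *Zfp42* (4 gained it). Of the 20 named for the difference between lines, none reversed and 9 lost the call at least once. Signal near background limits *Fgf8*, *Sp5*, *Stra8*, *Inhbb*, *Efemp1* and *Cd37*, whose lower mean is under 25, so that only a bound on the fold can be given.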

Other observations

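Most listed genes of antigen presentation and of the interferon response rose in control mesoderm. This list was put together after values had been seen, so it gets no test as a list. Of its 34 genes tested, 25 were higher and none lower by limma, against 15% and 8.35% of all genes, and 19 to 22 passed with an array left out. The 9 not called were *Irf7*, *Irf9*, *Stat2*, *Ifit1*, *Ifit2*, *Ifit3*, *Xaf1*, *Usp18* and *Nlrc5*, with log2 differences from -0.42 (*Nlrc5*) to 0.60 (*Usp18*). Apart from *Nlrc5* these are genes of the interferon response. *H2-K1*, a class I heavy chain whose probe set may also read related chains, had 737 and 739.8 in control mesoderm, against 146 and 176 in control ESCm (log2 difference 2.04, SE 0.15, adjusted p = 3.17e-06). *B2m*, the light chain common to class I molecules, had 952 and 929.6 in control mesoderm, against 253 and 292 in control ESCm (log2 difference 1.70, SE 0.19, adjusted p = 5.78e-05). The immunoproteasome subunit *Psmb8* had 145 and 189 in control mesoderm, against 6.76 and 6.2 in control ESCm, with no overlap between the populations (log2 difference 2.60, SE 0.27, adjusted p = 3.62e-05). *Tapbp*, which loads peptides, had 1357 and 1355 in control mesoderm, against 324 and 329.6 in control ESCm (log2 difference 1.97). *Irf1*, a transcription factor of the interferon response, had 1595 and 1594 in control mesoderm, against 335 and 387 in control ESCm (log2 difference 2.07, SE 0.17, adjusted p = 6.95e-06), and the guanylate-binding protein *Gbp2b* 858 and 886 in control mesoderm, against 108 and 111 in control ESCm (log2 difference 2.74, SE 0.14, adjusted p = 2.10e-07). In 15 of the 34 genes the change was lower than in the NERT line, and in none higher, against 1.13% and 0.158% of all genes. The list holds *Rtp4*, *Oasl2*, *Iigp1* and *Irgm2*, which had been named for that same difference, so this count is no separate support. Of its 30 genes tested that no naming rule had picked, 21 were higher in control mesoderm.

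In a list of meiosis and germ line genome defence, also put together after values had been seen, 23 of 35 genes tested were lower and 1, *Syce2*, was higher (1920.2 and 1853 in control mesoderm, against 1318 and 1371 in control ESCm), against 8.35% and 15% of all genes. The list holds genes that prompted it, and of its 27 genes not named in the results 17 were lower. Leaving out an array gave 19 falls and no rise. The 11 genes not called were *Rec8*, *Syce3*, *Sycp3*, *Tex15*, *Tdrd9*, *Tdrkh*, *Asz1*, *Mov10l1*, *Ddx4*, *Dmc1* and *Mei4*, with log2 differences from -0.29 (*Mov10l1*) to 0.56 (*Mei4*). *Piwil2*, which acts with small RNAs against transposons, had 48.2 and 54.7 in control mesoderm, against 258 and 256 in control ESCm (log2 difference -1.89, SE 0.14, adjusted p = 3.66e-06), and *Gtsf1*, of the same pathway, 43.3 and 38.8 in control mesoderm, against 281 and 270 in control ESCm (log2 difference -2.19, SE 0.20, adjusted p = 1.35e-05). The meiotic genes *Rec114* (146 and 164 in control mesoderm, against 675 and 716 in control ESCm, log2 difference -2.00), *Syce1* (97.2 and 107 in control mesoderm, against 355 and 372 in control ESCm, log2 difference -1.61) and *Stag3* (141 and 144 in control mesoderm, against 341 and 343 in control ESCm, log2 difference -1.13) fell as well. *Tex19.1*, which acts against transposons in germ cells, had 439 and 474 in control mesoderm, against 1576 and 1579 in control ESCm (log2 difference -1.74, SE 0.34, adjusted p = 0.00305). None of the 35 differed between the lines by limma's test of the difference.

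Of further genes known to respond to low oxygen, picked after their values had been seen, *Pfkfb3*, which speeds glycolysis, had 477 and 370.1 in control mesoderm, against 42.9 and 42.7 in control ESCm (log2 difference 2.72, SE 0.17, adjusted p = 1.07e-06), *Ddit4*, an inhibitor of mTORC1, 4463 and 4216 in control mesoderm, against 689 and 712 in control ESCm (log2 difference 2.59, SE 0.12, adjusted p = 1.43e-07), *Bhlhe40* 1048 and 932 in control mesoderm, against 137 and 129 in control ESCm (log2 difference 2.68, SE 0.18, adjusted p = 1.58e-06) and *Egln1*, the main oxygen sensor of the pathway, 1166 and 1080.1 in control mesoderm, against 188 and 174 in control ESCm (log2 difference 2.48, SE 0.22, adjusted p = 1.04e-05). All 4 had both mesoderm arrays above both ESCm arrays, which their picking by value made likely. The same was true of 10354 of the 25637 probe sets tested (40.4%). Among neurofilament genes, which mark neurons, *Nefl* (2084 and 2087 in control mesoderm, against 333 and 399.6 in control ESCm, log2 difference 2.44) and *Nefm* (1085 and 1050.2 in control mesoderm, against 126 and 129.5 in control ESCm, log2 difference 2.84) rose and *Nefh* (139 and 146 in control mesoderm, against 672 and 744 in control ESCm, log2 difference -2.13) fell.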
